A study of Mus musculus with 18 samples.

Results

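Polycomb group proteins form a pair of chromatin-modifying machines, and this account describes 10 of their genes across a germ cell differentiation series in mouse cells. The genes are Ezh2, Ezh1, Eed, Suz12, Jarid2 and Mtf2 of Polycomb repressive complex 2 (PRC2), and Kdm2b, Rnf2, Cbx7 and Pcgf6 of Polycomb repressive complex 1 (PRC1). They were taken as a named list, chosen with earlier results of these data known. Matched by symbol in a table of 25239 genes, all 10 were found and had enough counts to be tested. PRC2 places methyl groups on lysine residues of histone H3, with EZH2 or EZH1 as the enzyme, EED and SUZ12 as the other core subunits, and accessory proteins such as JARID2 and MTF2 that help to bring it to chromatin. PRC1 places ubiquitin on histone H2A through RNF2 or its paralog RING1, and its forms differ by which CBX or PCGF protein they hold. In pluripotent cells these complexes hold developmental regulators at low levels, and in primordial germ cells the histone mark of PRC2 is known to be remodelled genome-wide.

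RNA was measured in 18 libraries, 2 in each of 9 conditions, all from E14Tg2a mouse embryonic stem cells, an established line, that had been kept in 2i/LIF. The starting cells were EpiLCs (epiblast-like cells), made in 44 hours with Activin A and Fgf. EpiLCs were then grown as floating aggregates in GK15 medium for 2 or 6 days, either with no cytokines or with BMP4, BMP8a, SCF, LIF and EGF, which induce PGCLCs (primordial germ cell-like cells). Cells were wild type, or carried deletions of the reading frames of Tet1, Tet2 and Tet3 (TKO), the genes of the 3 enzymes that oxidise methylated cytosine. Wild-type cells were measured as EpiLCs, at day 2 and day 6 without cytokines and at day 6 with cytokines, and TKO cells as EpiLCs and at day 2 and day 6 under each treatment. The study's methods name a single TKO clone for its differentiation assays, so in these RNA data a property of that clone and the effect of the deletions cannot be told apart. The study also saw PGCLCs form without cytokines, by flow cytometry, in another TKO clone and in a triple-knockout line from another laboratory. By the study's account, the wild-type PGCLCs of day 6 had been sorted on SSEA1 and CD61, although the labels call every sample after EpiLC an aggregate, so each comparison with them can also be one of sorted with unsorted cells. Nothing in the labels says whether the 2 libraries of a condition came from separate cultures, and p-values then measure the spread between these libraries.

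Total counts were between 11286050 and 41257861 per library, and raw counts of the 10 genes were between 49 and 17901. Rn45s, a ribosomal RNA locus that remained despite depletion, made up 16.2% to 31.3% of all counts where aggregates had no cytokines (8 libraries) and 31.7% to 47.6% elsewhere (10 libraries). The deletions could be checked in EpiLCs, where normalised counts of Tet1 were 6227 and 6036 in wild-type and 737 and 967 in TKO cells, those of Tet2 186 and 125 against 31.7 and 102, and those of Tet3 821 and 1019 against 131 and 159. In edgeR Tet1 and Tet3 were lower in TKO EpiLCs (adjusted p = 0.000216 and 0.00022) and Tet2 did not pass the test (adjusted p = 0.141). At day 6 without cytokines Tet1 was at 1304 and 595 in wild-type and 998 and 737 in TKO cells, which overlap, and counts cover whole genes rather than the deleted part. The summed level of 5 primordial germ cell markers was 484 and 386 CPM (counts scaled by TMM to a common library size) in day 6 wild-type cells with cytokines, 157 to 212 in TKO aggregates and at most 15.6 elsewhere. That of 6 neural genes was 1404 and 1442 in day 6 wild-type aggregates without cytokines and at most 268 in every other library.

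The starts of 3 of the genes are shown because Cbx7 and Suz12 fell in wild-type aggregates without cytokines, where Ezh2 did not pass the test. Each CG pair, the dinucleotide that DNA methylation and the TET enzymes act on and that KDM2B binds through its zinc finger, is in capitals. The 3 windows are from RefSeq on GRCm38.p6, 250 bases before to 50 bases after a transcript start, read 5′ to 3′ on the gene's strand. They lie at chr15:79932597-79932896 (minus strand) for Cbx7, chr11:79992856-79993155 (plus strand) for Suz12 and chr6:47594981-47595280 (minus strand) for Ezh2.
Cbx7: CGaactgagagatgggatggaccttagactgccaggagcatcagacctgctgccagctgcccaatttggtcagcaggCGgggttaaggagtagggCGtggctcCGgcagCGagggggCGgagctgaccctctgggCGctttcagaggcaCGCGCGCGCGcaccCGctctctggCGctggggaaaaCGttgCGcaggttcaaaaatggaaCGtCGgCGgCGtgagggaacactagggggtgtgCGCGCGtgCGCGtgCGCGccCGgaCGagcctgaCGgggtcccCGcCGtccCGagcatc
Suz12: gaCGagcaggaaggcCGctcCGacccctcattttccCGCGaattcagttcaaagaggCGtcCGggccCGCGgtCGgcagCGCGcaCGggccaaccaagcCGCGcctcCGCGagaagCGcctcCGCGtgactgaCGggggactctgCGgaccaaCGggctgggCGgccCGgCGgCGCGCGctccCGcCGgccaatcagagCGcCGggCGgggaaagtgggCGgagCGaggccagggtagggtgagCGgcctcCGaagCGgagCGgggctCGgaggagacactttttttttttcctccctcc
Ezh2: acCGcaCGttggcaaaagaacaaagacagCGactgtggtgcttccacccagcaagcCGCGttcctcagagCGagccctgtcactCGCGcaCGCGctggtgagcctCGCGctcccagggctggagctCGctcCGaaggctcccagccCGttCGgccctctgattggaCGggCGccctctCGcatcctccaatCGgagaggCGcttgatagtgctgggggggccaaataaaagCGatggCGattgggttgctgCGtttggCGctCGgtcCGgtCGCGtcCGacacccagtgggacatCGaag
These windows held 33, 41 and 31 CG pairs. All 10 genes were matched, with 15 windows in all, since Jarid2 and Mtf2 have 2 listed starts and Kdm2b has 4. Of 32841 windows of the same length in the table, the median held 7 CG pairs, and 31.42% held 17 or more. Of the 15 windows of these genes 14 held 17 or more, while the downstream window of Mtf2 held 2. The richest was a window of Kdm2b with 49, a number that 1.02% of all windows reached. Counts per gene do not say which start was used.

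Each of the 10 genes differed among the 9 conditions in edgeR, whose quasi-likelihood F test, adjusted by the Benjamini-Hochberg method over 16582 genes, is behind every adjusted p given here. Among all genes tested 82.9% did so, and the number therefore says little about these genes. The span between the highest and the lowest condition, as a ratio of mean normalised counts (counts divided by DESeq2's size factors), was 28.3 for Cbx7, 5.25 for Pcgf6, 4.51 for Ezh1, 4.46 for Mtf2, 3.75 for Suz12, 3.38 for Jarid2, 3.27 for Eed, 2.83 for Kdm2b, 2.14 for Ezh2 and 1.78 for Rnf2. Day 6 wild-type aggregates without cytokines were the lowest of the 9 conditions for 7 genes, Ezh1, Eed, Suz12, Jarid2, Mtf2, Cbx7 and Pcgf6, and the highest for Ezh2. When the conditions were ordered by mean for each gene, the libraries of neighbours in that order overlapped in 43 of 80 pairs.

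**Figure D1:**
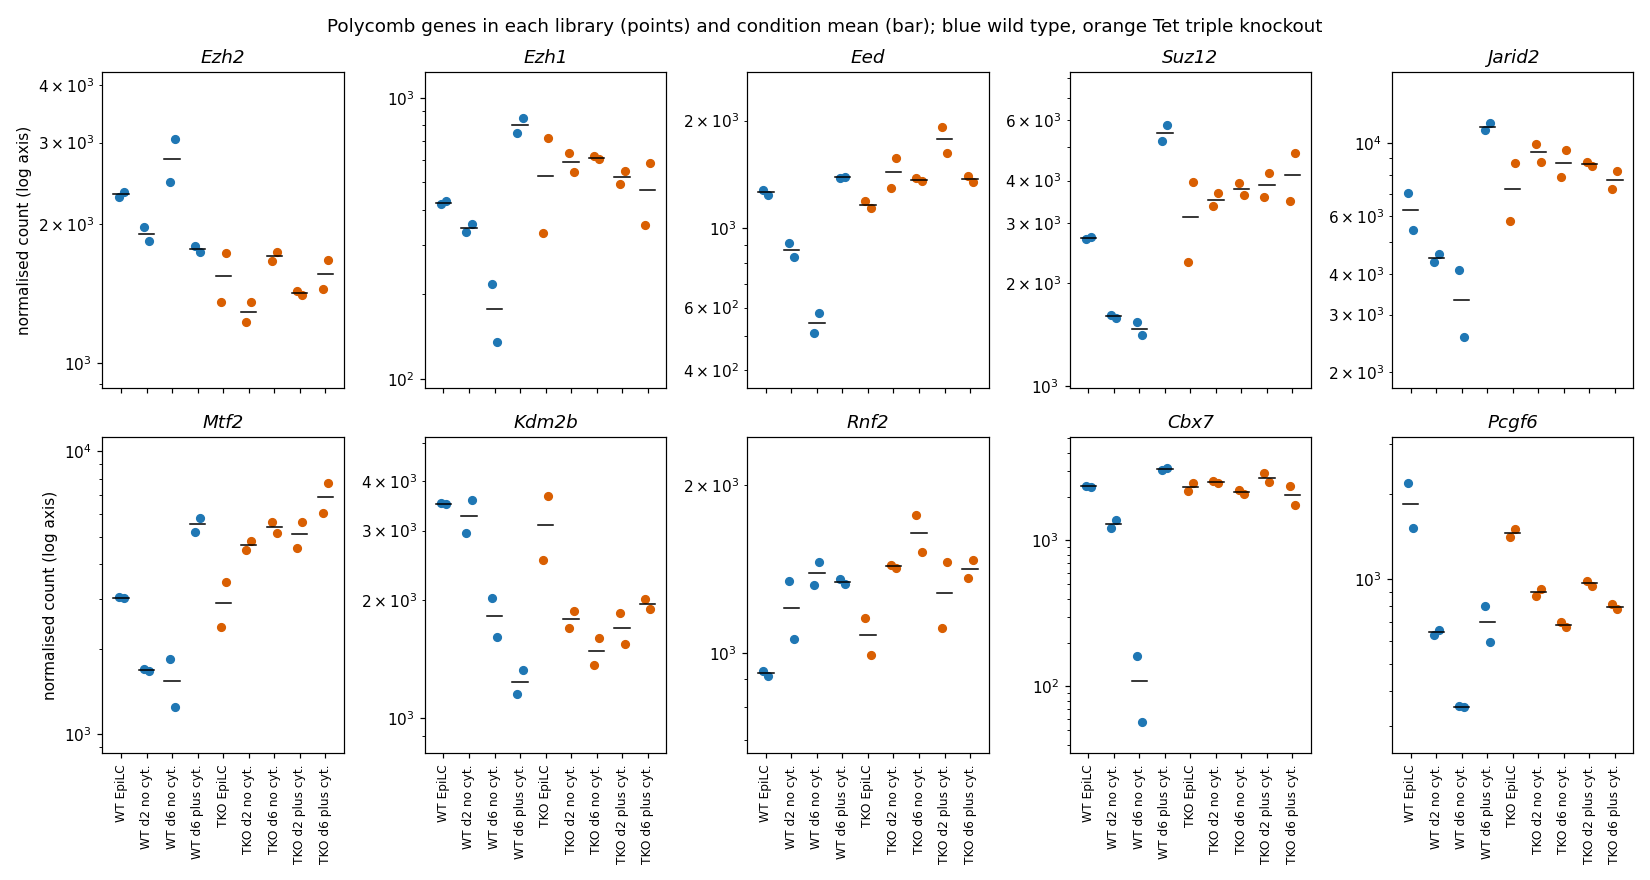
Normalised counts of the 10 Polycomb genes, 1 panel per gene, on log axes, with the 9 conditions along the x axis, a point for each library and a bar for the mean of 2 libraries. Blue points are wild type and orange points TKO. Cbx7 stands at 161 and 56.7 in day 6 wild-type aggregates without cytokines and at 1209.7 and 1383 in the next lowest condition, day 2 of the same course, while Ezh2 is at its highest at day 6 without cytokines.

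The main change was in wild-type cells that differentiated for 6 days without cytokines. Against wild-type EpiLCs, 8 of the 10 genes fell, 1 rose and Ezh2 did not pass the test, where 29% of all genes tested were called lower and 31.7% higher. The median log2 fold change of the 10 genes was −0.96, with 0.05 over all genes. Cbx7 fell the most, by 4.37 on the log2 scale, followed by Pcgf6, which fell by 2.38, and Rnf2 rose by 0.60. Part of this was already present at day 2, when 5 of the 10 genes had fallen and none of the 10 had risen, where 15.7% of all genes were called lower and 18.6% higher. The 5 were Pcgf6, Cbx7, Mtf2, Suz12 and Eed. Leaving out any 1 of the 4 libraries compared left 1 or 2 calls at day 2, Pcgf6 each time, against 9 at day 6 in each case. Fitted to its 4 libraries alone, the day 6 comparison lost the calls of Jarid2 (adjusted p = 0.0623) and Rnf2 (adjusted p = 0.0678). With scaling by library size alone, which moves the median of all genes to 0.59 at day 2 and 0.73 at day 6, 2 genes were called higher and 1 lower at day 2, and 2 higher and 3 lower at day 6. A fall here is therefore one relative to the other genes. Library size includes Rn45s, which made up 47.6% and 40.7% of counts in wild-type EpiLCs. Without cytokines it made up 21.5% and 31.3% at day 2 and 22.3% and 18.3% at day 6. The part of Rn45s in that move of the median was not tested. In these bulk libraries a smaller number of cells that express a gene and less RNA per cell cannot be told apart.

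Other measures moved with the fall in wild-type aggregates without cytokines. Of 12 proliferation genes, 10 fell from wild-type EpiLCs to day 6 without cytokines and none rose, where 29% of all genes were called lower and 31.7% higher. Their median log2 fold change was −1.50, with 0.05 over all genes. Their summed level was 4789 and 4513 CPM in EpiLCs and 1618 and 2268 at day 6. In day 6 TKO cells without cytokines it was 2950 and 2955, and in wild-type PGCLCs 4227 and 3839. All 6 neural genes rose in those wild-type aggregates, where 31.7% of all genes were called higher. Their part and that of proliferation in the change of the 10 genes was not tested.

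In wild-type PGCLCs 4 of the 6 PRC2 genes were higher than in EpiLCs. At day 6 with cytokines, 5 of the 10 genes were higher than in EpiLCs (Suz12, Ezh1, Mtf2, Jarid2 and Rnf2) and 2 were lower (Kdm2b and Pcgf6), where 22.4% of all genes tested were called higher and 18.2% lower. Without replicate 2 of wild-type EpiLCs 4 calls were left, and Jarid2 was among those lost (adjusted p = 0.0815). Between the day 6 wild-type groups, 7 genes were higher with cytokines and 2, Ezh2 and Kdm2b, were lower, where 29.6% and 28.6% of all genes were called. The median of the 10 genes in that comparison was 1.60 on the log2 scale, with 0.01 over all genes. Comparisons with wild-type EpiLCs share those libraries, and those of the day 6 groups share theirs, so their values are given side by side and not as separate evidence.

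In TKO cells 4 of the 10 genes passed the test over 6 days without cytokines and 3 with cytokines. Without cytokines 2 genes were higher than in TKO EpiLCs (Mtf2 and Rnf2) and 2 lower (Kdm2b and Pcgf6), where 15.7% and 12.3% of all genes were called. With cytokines 1 was higher (Mtf2) and 2 were lower (Kdm2b and Pcgf6), where 14.9% and 10.4% were called. Cbx7, Eed, Suz12, Jarid2, Ezh1 and Ezh2 passed the test in neither, with log2 fold changes between −0.17 and 0.41. Scaling by library size alone gave 6 higher and 2 lower in the comparison without cytokines, and 2 calls were left there without replicate 1 of day 6 TKO cells.

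**Figure D2:**
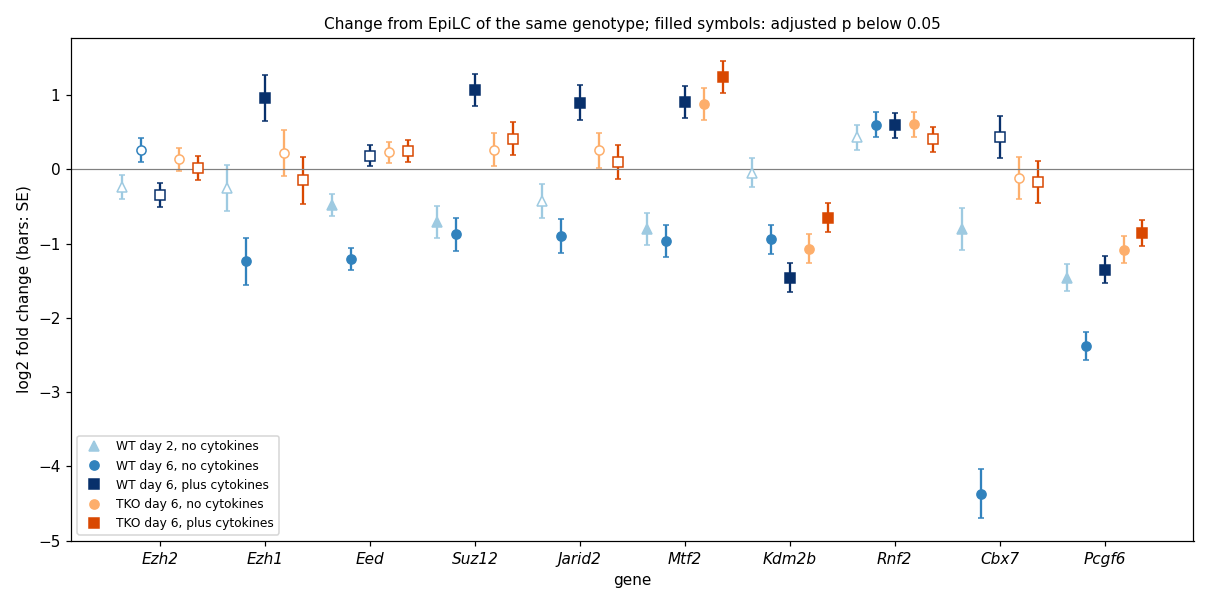
Log2 fold change of each gene from EpiLCs of the same genotype, with bars of 1 standard error (SE), for wild type (blue) at day 2 and day 6 and for TKO (orange) at day 6. Filled symbols have an adjusted p below 0.05. Cbx7 lies at −0.12 and −0.17 in TKO cells without and with cytokines (open symbols) and at −4.37 in wild-type cells without cytokines.

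The difference between genotypes in the course without cytokines was tested as an interaction, the change from EpiLCs to day 6 in TKO cells less that in wild-type cells. It passed the test above 0 for 7 of the 10 genes and below 0 for none of them, where 18.5% of all genes tested were called on each side. The 7 genes were Cbx7, Mtf2, Ezh1, Eed, Pcgf6, Jarid2 and Suz12. The second interaction, the cytokine effect at day 6 in TKO cells less that in wild-type cells, passed the test below 0 for the same 7 genes by name and above 0 for Kdm2b, where 22% of all genes were called below and 21% above. The 2 tests share the day 6 groups without cytokines. In TKO cells themselves, 0 of the 10 genes passed edgeR's test of the cytokines at day 2, where 2.05% of all genes were called higher and 2.47% lower, and 0 at day 6, where 2.56% and 3.05% were called. At an unadjusted p below 0.05 there was 1 gene at each time, Eed at day 2 and Kdm2b at day 6, and DESeq2's Wald test called 0 in each. Scaling by library size alone called 3 genes lower at day 6.

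Set against wild-type cells of the same stage, TKO cells had the fewest calls in EpiLCs and at day 6 with cytokines, and the most without cytokines. The shares called over all genes tested followed the same order, so this order is not particular to the 10 genes. In EpiLCs 1 of the 10 genes, Ezh2, was lower and none of the 10 was higher, where 3.18% of all genes were called lower and 7.57% higher, and this call was lost without either wild-type library or replicate 1 of TKO EpiLCs (adjusted p between 0.136 and 0.224), with a fit to the 4 libraries alone (adjusted p = 0.0641) and without the filter on low counts (adjusted p = 0.0702). At day 2 without cytokines 5 genes were higher and 2 lower, where 18% and 14.8% of all genes were called, and scaling by library size alone gave 7 and 1. At day 6 without cytokines 7 were higher and 1 lower, where 28.5% and 26.9% were called. At day 6 with cytokines 1 gene, Kdm2b, was higher and none of the 10 was lower, where 11.3% and 7.53% were called, and that call was lost without any 1 of the 4 libraries (adjusted p between 0.0742 and 0.224). In that comparison a fit to its 4 libraries alone called 1 gene higher and 3 lower.

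**Figure D3:**
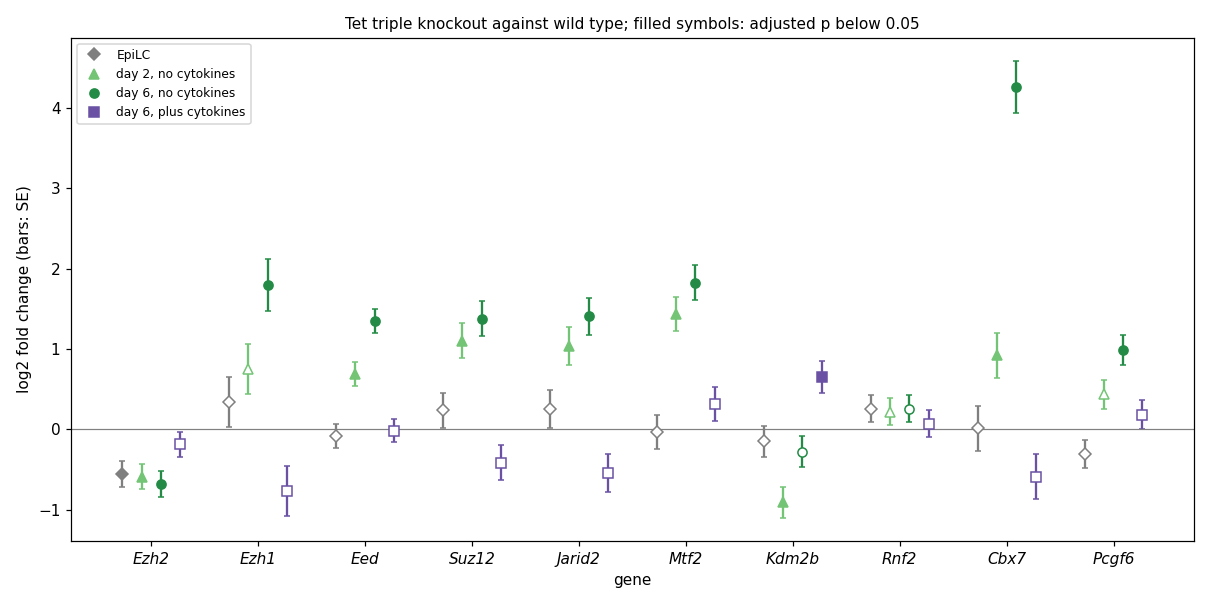
Log2 fold change of TKO against wild-type cells for each gene at 4 matched stages, with bars of 1 standard error and filled symbols where the adjusted p is below 0.05. At day 6 without cytokines (green circles) 7 genes lie between 0.99 and 4.26 and Ezh2 lies at −0.68, while at day 6 with cytokines (purple squares) Kdm2b is the filled symbol.

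Day 2 TKO cells with cytokines were also set against day 6 wild-type PGCLCs, a comparison across times and, by the study's account, of unsorted with sorted cells. What it says about how soon the germline state is reached was not tested. None of the 10 genes was called, where 10.4% of all genes tested were called higher and 9.49% lower. At an unadjusted p below 0.05 there were 4 (Eed, Suz12, Kdm2b and Pcgf6), DESeq2's Wald test called 0, and a fit to the 4 libraries alone called 3. The log2 fold changes were between −0.62 for Ezh1 and 0.45 for Pcgf6, and the widest 95% interval, that of Ezh1, reached 0.604 to either side of its value.

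Ezh2 (chromosome 6, 47530139 to 47595341, minus strand, mm10) encodes the PRC2 methyltransferase of dividing cells. Its normalised counts were 2291 and 2345 in wild-type EpiLCs, 1967 and 1836 at day 2 and 2467 and 3058 at day 6 without cytokines, and 1793 and 1743 at day 6 with cytokines. In TKO cells they were 1358 and 1734 in EpiLCs, 1229.8 and 1353 at day 2 and 1664 and 1742 at day 6 without cytokines, and 1431 and 1403 at day 2 and 1446 and 1668 at day 6 with cytokines. Every TKO library lay below every wild-type library, and the closest were 1742 in day 6 TKO cells without cytokines and 1743 in wild-type PGCLCs. In what follows ± gives the standard error (SE) of a log2 fold change. Against wild type, the log2 fold change in TKO cells was −0.55 (± 0.16 SE, adjusted p = 0.0357) in EpiLCs, −0.59 (± 0.16 SE, adjusted p = 0.0102) at day 2 and −0.68 (± 0.16 SE, adjusted p = 0.00199) at day 6 without cytokines. At day 6 with cytokines it was −0.19 (± 0.16 SE, adjusted p = 0.446), which did not pass the test. The day 2 call was lost without replicate 1 of either group (adjusted p = 0.0536 and 0.0938). Day 6 wild-type aggregates also exceeded day 6 wild-type PGCLCs, with a log2 fold change of −0.60 (± 0.16 SE, adjusted p = 0.00399) for the latter against the former. Fitted to its 4 libraries alone, that value was −0.63 (adjusted p = 0.0624). The genotype difference at day 6 without cytokines was then −0.62 (adjusted p = 0.0879). With library size alone the genotype difference was −0.26 in EpiLCs (adjusted p = 0.373) and −0.36 at day 2 (adjusted p = 0.152). Neither interaction passed the test for Ezh2, with −0.12 (adjusted p = 0.704) for time and 0.49 (adjusted p = 0.0881) for cytokines.

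Ezh1 (chromosome 11, 101191115 to 101226463, minus strand) encodes the paralog of EZH2 that is best known from non-dividing cells. Normalised counts in wild-type cells were 418 and 429 in EpiLCs, 332 and 355 at day 2 and 219 and 135 at day 6 without cytokines, and 750.2 and 846 at day 6 with cytokines. In TKO cells they were 330.4 and 721 in EpiLCs, 637 and 547 at day 2 and 621 and 605 at day 6 without cytokines, and 494 and 547 at day 2 and 354 and 584 at day 6 with cytokines. The 2 wild-type libraries at day 6 without cytokines were the lowest of all 18, and the 2 TKO EpiLC libraries were 1.13 apart on the log2 scale, the widest gap for this gene. Ezh1 fell from wild-type EpiLCs to day 6 without cytokines by a log2 fold change of −1.24 (± 0.32 SE, adjusted p = 0.00333) and rose to day 6 with cytokines by 0.96 (± 0.31 SE, adjusted p = 0.0227), a rise whose adjusted p was between 0.0539 and 0.111 without 1 of its 4 libraries. Between the genotypes at day 6 without cytokines it was 1.79 (± 0.32 SE, adjusted p = 0.000244). The time interaction was 1.45 (± 0.44 SE, adjusted p = 0.0178) and passed 0.05 neither without replicate 2 of wild-type EpiLCs (adjusted p = 0.0515) nor without replicate 1 of TKO EpiLCs (adjusted p = 0.0633). The cytokine interaction was −2.56 (± 0.44 SE, adjusted p = 0.000314).

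Ezh1 and Ezh2 compete for the same place in PRC2, and their levels per length of exon can be compared. In CPM per kilobase, Ezh2 was at 45.4 and 47.6 in wild-type EpiLCs and 49.6 and 61.7 at day 6 without cytokines, and Ezh1 went from 5.54 and 5.82 to 2.93 and 1.83. As a share of the sum of both levels, Ezh1 held 10.9% and 10.9% in wild-type EpiLCs, 5.59% and 2.88% at day 6 without cytokines and 21.8% and 24.5% at day 6 with cytokines. In TKO libraries its share was between 14% and 25.7%. Ezh2 was thus the more abundant RNA in each library, and the share of Ezh1 was lower in the day 6 wild-type aggregates without cytokines than in any other library.

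Eed (chromosome 7, 89954654 to 89980983, minus strand) encodes the core subunit that reads the PRC2 mark. Its normalised counts went from 1277 and 1242 in wild-type EpiLCs to 910.4 and 829 at day 2 and 508 and 578 at day 6 without cytokines, with 1379 and 1395 at day 6 with cytokines. TKO cells held 1189 and 1139 in EpiLCs, 1295 and 1575 at day 2 and 1383 and 1352 at day 6 without cytokines, and 1921 and 1625 at day 2 and 1403 and 1348 at day 6 with them. Wild-type libraries without cytokines lay below all others at each time. The log2 fold change from wild-type EpiLCs was −0.48 (± 0.15 SE, adjusted p = 0.0179) at day 2 and −1.21 (± 0.15 SE, adjusted p = 4.92e-06) at day 6 without cytokines, where the day 2 value became 0.10 with scaling by library size alone. It was 1.35 (± 0.15 SE, adjusted p = 2.42e-06) in TKO against wild-type cells at day 6 without cytokines, 1.44 (± 0.21 SE, adjusted p = 7.85e-05) for the time interaction and −1.37 (± 0.21 SE, adjusted p = 9.13e-05) for the cytokine interaction. Against wild-type EpiLCs, wild-type PGCLCs were at 0.18 (± 0.14 SE, adjusted p = 0.332), which did not pass the test. The fall at day 2 lost its call without any 1 of its 4 libraries, with log2 fold changes between −0.53 and −0.43. Without the filter on low counts that fall was −0.48 (adjusted p = 0.0591).

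Suz12 (chromosome 11, 79993106 to 80034123, plus strand) encodes the scaffold subunit of PRC2. Wild-type cells held 2694 and 2729.9 in EpiLCs, 1618 and 1579 at day 2 and 1538 and 1408 at day 6 without cytokines, and 5227 and 5817 at day 6 with cytokines. TKO cells held 2314 and 3949.6 in EpiLCs, 3357 and 3679 at day 2 and 3938 and 3625 at day 6 without cytokines, and 3590.2 and 4198 at day 2 and 3487 and 4811 at day 6 with them. The 4 wild-type libraries without cytokines were the lowest and the 2 wild-type PGCLC libraries the highest of all 18. It changed from wild-type EpiLCs by −0.71 (± 0.22 SE, adjusted p = 0.0196) on the log2 scale at day 2 and −0.88 (± 0.22 SE, adjusted p = 0.00275) at day 6 without cytokines, and 1.07 (± 0.22 SE, adjusted p = 0.00134) at day 6 with cytokines. The day 2 call was lost without any 1 of its 4 libraries, with values between −0.74 and −0.68. With library size alone the falls were −0.14 (adjusted p = 0.644) at day 2 and −0.19 (adjusted p = 0.47) at day 6. TKO against wild-type cells without cytokines gave 1.11 (± 0.22 SE, adjusted p = 0.0014) at day 2 and 1.38 (± 0.22 SE, adjusted p = 9.29e-05) at day 6. The interactions were 1.14 (± 0.31 SE, adjusted p = 0.00899) for time and −1.80 (± 0.31 SE, adjusted p = 0.000285) for cytokines.

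Jarid2 (chromosome 13, 44729474 to 44921643, plus strand) encodes an accessory subunit that aids PRC2 recruitment and activity. Its normalised counts were 7057 and 5437 in wild-type EpiLCs, 4348 and 4598 at day 2 and 4103 and 2563 at day 6 without cytokines, and 10996 and 11519 at day 6 with cytokines. TKO cells held 5814 and 8739 in EpiLCs, 9996 and 8788 at day 2 and 7904 and 9529.8 at day 6 without cytokines, and 8751 and 8549.6 at day 2 and 7258 and 8247 at day 6 with them. Again the wild-type libraries without cytokines were the lowest and the wild-type PGCLCs the highest. The log2 fold change from wild-type EpiLCs was −0.90 (± 0.23 SE, adjusted p = 0.00361) at day 6 without and 0.90 (± 0.23 SE, adjusted p = 0.00668) with cytokines, and between these day 6 groups it was 1.79 (± 0.24 SE, adjusted p = 1.2e-05). The fall was −0.93 (adjusted p = 0.0623) in a fit to its 4 libraries alone and −0.20 (adjusted p = 0.447) with library size alone. Without replicate 2 of wild-type EpiLCs the rise was 0.74 and lost its call. Against wild type without cytokines, TKO cells were at 1.04 (± 0.23 SE, adjusted p = 0.00339) at day 2 and 1.41 (± 0.24 SE, adjusted p = 0.000141) at day 6. The time interaction of 1.15 (± 0.33 SE, adjusted p = 0.0125) missed 0.05 without replicate 1 of EpiLCs of either genotype or replicate 2 of day 6 TKO cells, with adjusted p between 0.0526 and 0.0615, and the cytokine interaction was −1.95 (± 0.33 SE, adjusted p = 0.000253).

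Mtf2 (chromosome 5, 108065674 to 108109004, plus strand) encodes a Polycomb-like protein that binds CG-rich DNA and directs PRC2 there. Wild-type cells held 3051 and 3021 in EpiLCs, 1700.0 and 1664 at day 2 and 1839 and 1246 at day 6 without cytokines, and 5203 and 5826 at day 6 with cytokines. TKO cells held 2382 and 3446 in EpiLCs, 4496 and 4811 at day 2 and 5632 and 5155 at day 6 without cytokines, and 4550.0 and 5622 at day 2 and 6036 and 7716 at day 6 with them. Of the 6 PRC2 genes described here it was the one that rose in each group of day 6 cells except the wild-type aggregates without cytokines, and Aebp2, another PRC2 accessory gene, rose in the same 3 groups. Against EpiLCs of the same genotype the log2 fold change was 0.90 (± 0.21 SE, adjusted p = 0.00368) in wild-type PGCLCs, 0.88 (± 0.21 SE, adjusted p = 0.00762) in TKO cells without and 1.25 (± 0.22 SE, adjusted p = 0.000633) in TKO cells with cytokines, and −0.97 (± 0.21 SE, adjusted p = 0.00112) in wild-type aggregates without cytokines. The rise in TKO cells without cytokines was lost without replicate 1 of either TKO group (adjusted p = 0.0872 and 0.0639). TKO against wild-type cells without cytokines gave 1.44 (± 0.22 SE, adjusted p = 0.000157) at day 2 and 1.82 (± 0.22 SE, adjusted p = 6.25e-06) at day 6. The interactions were 1.85 (± 0.30 SE, adjusted p = 0.00024) for time and −1.51 (± 0.30 SE, adjusted p = 0.000975) for cytokines.

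Across the 9 condition means these PRC2 genes varied together apart from Ezh2, which is given as a description of 9 points that share their libraries. Pearson's r of mean log2 CPM was 0.97 for Ezh1 with Jarid2, 0.96 for Suz12 with Jarid2 and 0.95 for Suz12 with Mtf2. Ezh2 had r between −0.79 and −0.66 with the other 5 PRC2 genes. Of 12200 genes, the profiles most like those of the 10 were those of F11r for Cbx7 (r = 0.995), Sdc4 for Suz12 (0.998), Epp13 for Jarid2 (0.996), Itgb4 for Eed (0.984), 4931406P16Rik for Ezh1 (0.989), Nsun2 for Pcgf6 (0.993), Hectd2 for Rnf2 (0.979) and Nacc1 for Kdm2b (0.977). For Mtf2, H2-Eb1 and Aurkc reached 0.985, and Ctxn1 and Gprc5b reached 0.946 for Ezh2, the weakest likeness of the 10.

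Cbx7 (chromosome 15, 79915807 to 79971119, minus strand) encodes the chromodomain subunit that lets canonical PRC1 read the PRC2 mark, and it is the main CBX protein of pluripotent cells. Wild-type cells held 2376 and 2329.7 in EpiLCs, 1209.7 and 1383 at day 2 and 161 and 56.7 at day 6 without cytokines, and 3018 and 3147 at day 6 with cytokines. TKO cells held 2193 and 2459.7 in EpiLCs, 2545 and 2477 at day 2 and 2215 and 2094 at day 6 without cytokines, and 2885 and 2511 at day 2 and 2347 and 1762 at day 6 with them. The day 6 wild-type libraries without cytokines lay far below the next lowest library, at 1209.7, and were themselves 1.47 apart on the log2 scale, from raw counts of 356 and 49. The log2 fold change from wild-type EpiLCs was −0.81 (± 0.28 SE, adjusted p = 0.0378) at day 2 and −4.37 (± 0.33 SE, adjusted p = 4.29e-08) at day 6. Between the day 6 wild-type groups it was 4.80 (± 0.33 SE, adjusted p = 1.63e-08) with against without cytokines, and between genotypes without cytokines 0.92 (± 0.28 SE, adjusted p = 0.0215) at day 2 and 4.26 (± 0.33 SE, adjusted p = 6.08e-08) at day 6. Neither day 2 call held without any 1 of its 4 libraries, with adjusted p between 0.0861 and 0.204 for the fall and between 0.0731 and 0.126 for the difference between genotypes. The interactions of 4.25 (± 0.42 SE, adjusted p = 2.63e-06) for time and −4.85 (± 0.42 SE, adjusted p = 5.19e-07) for cytokines were larger than those of any of the other 9 genes. In the course of TKO cells no test of Cbx7 passed, with −0.12 (± 0.28 SE, adjusted p = 0.789) and −0.17 (± 0.28 SE, adjusted p = 0.701) at day 6 without and with cytokines.

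Cbx8, a paralog that serves canonical PRC1 in differentiated cells, rose in wild-type cells without cytokines. Its normalised counts were 19.3 and 22.2 in wild-type EpiLCs and 222 and 263 at day 6 without cytokines. It rose while Cbx7 fell, with 3.52 (± 0.38 SE, adjusted p = 1.37e-06) on the log2 scale. Cbx8 also rose from TKO EpiLCs to day 6 with cytokines, by 2.54 (± 0.37 SE, adjusted p = 0.000143), where Cbx7 did not pass the test. As a share of the length-scaled levels of Cbx2, Cbx6, Cbx7 and Cbx8, Cbx7 held 57.2% and 57.5% in wild-type EpiLCs, 41.3% and 44.1% at day 2, 9.08% and 3.41% at day 6 without cytokines and 73.3% and 76.5% at day 6 with cytokines. In TKO libraries the share was between 53.1% and 68.1%. The summed level of these 4 genes was lower too, at 79.7 and 79.6 CPM per kilobase in wild-type EpiLCs and 34.5 and 32.5 at day 6 without cytokines, so the rise of Cbx8 did not make up for the loss of Cbx7 in this sum.

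**Figure D4:**
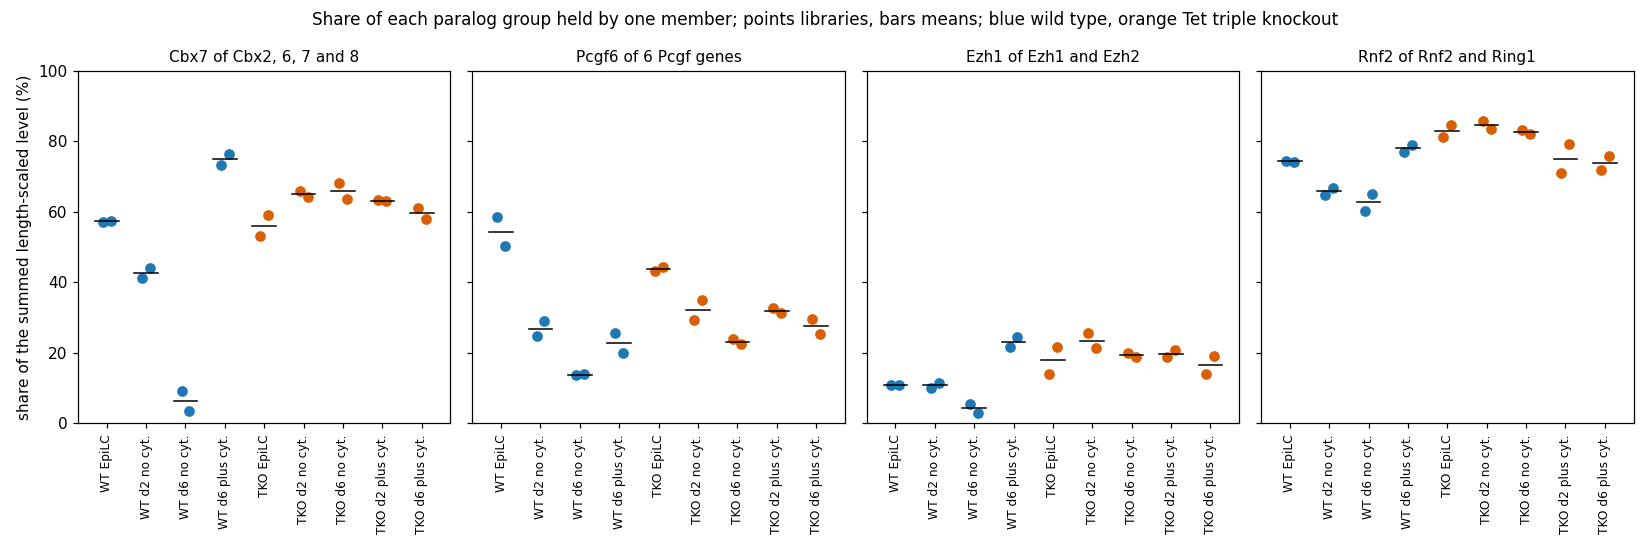
Share of 4 paralog groups held by a single gene in each library, in percent of the summed CPM per kilobase, with bars for the mean of 2 libraries and blue for wild type and orange for TKO. Cbx7 is at 9.08% and 3.41% of the sum of these CBX genes in day 6 wild-type aggregates without cytokines, while the share of Rnf2 stays between 60.3% and 85.8% throughout.

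Pcgf6 (chromosome 19, 47033617 to 47050906, minus strand) encodes the defining subunit of a variant PRC1 that keeps germline genes silent in pluripotent cells. Wild-type cells held 2185 and 1509.8 in EpiLCs, 633 and 660.4 at day 2 and 353 and 351 at day 6 without cytokines, and 804 and 597 at day 6 with cytokines. TKO cells held 1408 and 1498 in EpiLCs, 867 and 923 at day 2 and 701 and 675 at day 6 without cytokines, and 985 and 947 at day 2 and 813 and 781 at day 6 with them. EpiLCs of either genotype were above every aggregate library, and the gene fell in all 5 comparisons with EpiLCs. The log2 fold change was −1.46 (± 0.18 SE, adjusted p = 3.01e-05) at day 2 and −2.38 (± 0.19 SE, adjusted p = 6.38e-08) at day 6 in wild-type cells without cytokines, −1.35 (± 0.18 SE, adjusted p = 4.33e-05) in wild-type PGCLCs, and −1.08 (± 0.18 SE, adjusted p = 0.000616) and −0.86 (± 0.18 SE, adjusted p = 0.00261) in day 6 TKO cells without and with cytokines. The fall without cytokines was larger in wild type, with a time interaction of 1.30 (± 0.25 SE, adjusted p = 0.00099), and the cytokine interaction of −0.81 (± 0.25 SE, adjusted p = 0.0186) was at an adjusted p between 0.0503 and 0.111 when 1 of 3 libraries was left out. Among Pcgf1, Pcgf2, Pcgf3, Pcgf5, Bmi1 and Pcgf6, its share of the length-scaled level was 58.5% and 50.2% in wild-type EpiLCs and 13.7% and 13.9% at day 6 without cytokines. Bmi1, the PCGF gene of canonical PRC1 best known from somatic stem cells, went from 138 and 137 to 1148 and 1078 normalised counts over the same course, a log2 fold change of 3.02 (± 0.30 SE, adjusted p = 6.95e-07).

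Rnf2 (chromosome 1, 151458004 to 151500955, minus strand) encodes the ubiquitin ligase RING1B found in most PRC1 forms, and it was the steadiest of the 10 genes. Wild-type cells held 929 and 912 in EpiLCs, 1346 and 1058 at day 2 and 1326 and 1458 at day 6 without cytokines, and 1356 and 1329 at day 6 with cytokines. TKO cells held 1158 and 994 in EpiLCs, 1439 and 1423 at day 2 and 1769 and 1514 at day 6 without cytokines, and 1109 and 1455 at day 2 and 1361 and 1471 at day 6 with them. The wild-type EpiLC libraries were the lowest of all 18. The log2 fold change from EpiLCs was 0.60 (± 0.17 SE, adjusted p = 0.00593) in wild-type aggregates without cytokines, 0.59 (± 0.17 SE, adjusted p = 0.0115) in wild-type PGCLCs and 0.60 (± 0.17 SE, adjusted p = 0.0154) in TKO cells without cytokines. In a fit to its 4 libraries alone, the rise in wild-type aggregates was 0.57 (adjusted p = 0.0678). The call in PGCLCs was lost without any 1 of its 4 libraries (adjusted p between 0.0522 and 0.0672), and that in TKO cells without replicate 2 of TKO EpiLCs or replicate 1 of day 6 TKO cells (adjusted p = 0.11 and 0.156). Neither interaction passed the test, and none of the 4 comparisons of TKO with wild-type cells did, with log2 fold changes between 0.07 and 0.26.

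Kdm2b (chromosome 5, 122870665 to 122989823, minus strand) encodes the protein that brings a variant PRC1 to unmethylated CG-rich DNA. Its exons overlap those of Rnf34 on the other strand, and the counting did not use the strand, so reads there could not be given to either gene. Wild-type cells held 3515 and 3507 in EpiLCs, 2961 and 3589 at day 2 and 2022 and 1612 at day 6 without cytokines, and 1151 and 1329 at day 6 with cytokines. TKO cells held 2519 and 3674 in EpiLCs, 1698 and 1877 at day 2 and 1362 and 1600.3 at day 6 without cytokines, and 1854 and 1547 at day 2 and 2014 and 1900.0 at day 6 with them. Day 6 cells of every kind were below the EpiLCs of their genotype, while wild-type cells at day 2 overlapped wild-type EpiLCs. The log2 fold change from EpiLCs at day 6 was −0.95 (± 0.20 SE, adjusted p = 0.000665) in wild-type cells without and −1.46 (± 0.20 SE, adjusted p = 5.36e-05) with cytokines, and −1.07 (± 0.20 SE, adjusted p = 0.00131) and −0.65 (± 0.20 SE, adjusted p = 0.0233) in TKO cells without and with cytokines. The last was lost without replicate 2 of TKO EpiLCs or either day 6 library (adjusted p between 0.0682 and 0.253), and the lower level in wild-type PGCLCs than in day 6 wild-type aggregates, at −0.51 (± 0.20 SE, adjusted p = 0.0344), without replicate 1 of the aggregates or either PGCLC library (adjusted p between 0.0618 and 0.204). At day 2 without cytokines TKO cells were lower than wild-type cells, with a log2 fold change of −0.91 (± 0.20 SE, adjusted p = 0.00256). At day 6 the same comparison gave −0.28 (± 0.20 SE, adjusted p = 0.242) without cytokines, which did not pass the test, and 0.65 (± 0.20 SE, adjusted p = 0.0302) with them. Of the 10 genes it was the one whose cytokine interaction passed the test above 0, at 0.93 (± 0.28 SE, adjusted p = 0.0136), a call that was lost without replicate 1 of wild-type PGCLCs (adjusted p = 0.0643) or of TKO cells without cytokines (adjusted p = 0.0652).

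The remaining subunits of both complexes, in lists also chosen with earlier results of these data known, moved in both directions. From wild-type EpiLCs to day 6 without cytokines, 3 of 8 other PRC2 genes rose and 4 fell, and 12 of 26 other PRC1 genes rose and 6 fell, where 31.7% of all genes were called higher and 29% lower. The medians of the lists were −0.38 and 0.47 on the log2 scale, with 0.05 over all genes. Large changes were seen in Ezhip (listed under the symbol AU022751), which encodes an inhibitor of PRC2 and fell by 4.03, and in Epop, an accessory subunit gene, which fell by 2.15, while the PRC1 genes Phc2, Cbx8 and Bmi1 rose by 3.68, 3.52 and 3.02. Phc2, a polyhomeotic gene of canonical PRC1, went from 318 and 272 to 3761 and 3771 normalised counts and had risen at day 2 already, to 2447 and 2368. In TKO cells without cytokines at day 6 it was at 883 and 805, a log2 fold change of −2.14 (± 0.19 SE, adjusted p = 3.18e-07) against wild type. Ezhip was at 73.9 and 112 in wild-type EpiLCs, 8.16 and 1.158 at day 6 without cytokines, 111 and 79.8 in wild-type PGCLCs, and 302 and 404 in day 6 TKO cells with cytokines, its highest level.

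In wild-type PGCLCs the largest change of a PRC2 gene was in Phf19, a Polycomb-like paralog of Mtf2, with 41.8 and 31.1 normalised counts in EpiLCs and 1269 and 1066 in PGCLCs, a log2 fold change of 5.08 (± 0.34 SE, adjusted p = 9.23e-08). In TKO cells it was between 111 and 389.97 in every library, and in EpiLCs it was higher than in wild type by a log2 fold change of 1.87 (± 0.32 SE, adjusted p = 0.00219). Day 2 TKO cells with cytokines differed from wild-type PGCLCs by −2.44 (± 0.29 SE, adjusted p = 9.19e-05), in the comparison where none of the 10 genes was called. Across TKO against wild-type cells at day 6 without cytokines, 5 of 8 other PRC2 genes were higher and 0 lower, and 9 of 26 other PRC1 genes were higher and 9 lower, where 28.5% of all genes were called higher and 26.9% lower. Rybp, a subunit of variant PRC1, was among the higher ones at 2.40 (± 0.23 SE, adjusted p = 5.3e-07), with 289.7 and 161 normalised counts in wild-type and 1097 and 1275 in TKO cells. Of 6 genes whose products oppose Polycomb marks, 3 were higher and 2 lower, and Kdm6a, which encodes an H3K27 demethylase, was among the higher ones at 1.01 (± 0.16 SE, adjusted p = 6.58e-05).

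Known targets of Polycomb were read from a list of 15 developmental genes, of which 14 were tested. From wild-type EpiLCs to day 6 without cytokines, 9 of the 14 rose and 2 fell, where 31.7% and 29% of all genes did. Neurog2, a proneural factor, went from 1.61 and 1.11 to 797 and 1912 normalised counts, and Pax3, a dorsal neural factor, from 0 in each library to 999 and 1510.1. Cdkn2a, a cell cycle inhibitor locus, ran the other way, from 288 and 272 in wild-type EpiLCs to 11.7 and 10.1 at day 2 without cytokines, a log2 fold change of −4.62 (± 0.35 SE, adjusted p = 4.63e-07), and it stood at 329 and 258 in TKO cells of that day. In wild-type PGCLCs 7 of the 14 were also higher than in EpiLCs and none lower, where 22.4% and 18.2% of all genes were. The summed level of the list was 17.6 and 17.2 CPM in wild-type EpiLCs and 23.0 and 23.6 in PGCLCs. At day 6 without cytokines it was 308 and 361. Neurog1 and Neurog2 are also in the list of neural genes. In TKO cells without cytokines 7 of the 14 rose over 6 days and none fell, where 15.7% and 12.3% of all genes did, with Pax3 at 64.6 and 49.2 and Neurog2 at 1.08 and 0 normalised counts. Gata4, an endoderm factor, was at 107 and 37.4 normalised counts in TKO and 4.82 and 3.89 in wild-type EpiLCs, a log2 fold change of 4.10 (± 0.64 SE, adjusted p = 0.00128).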

How the data were processed

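Gene counts were deposited by the authors, who trimmed reads from rRNA-depleted, directional libraries with Trim Galore 0.5.0 and cutadapt 1.16, aligned them to mm10 with STAR 2.7.1a and counted reads over exons of the refGene annotation with featureCounts (Subread 1.5.2) without a strand setting. Reads on several genes or places were not counted, which lowers genes with overlapping exons or near-identical copies. The deposited counts are raw, and 33 command lines without values were dropped.

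Counts of 18 libraries were fitted with edgeR 4.0.16 (quasi-likelihood, TMM, filterByExpr by group, 1 mean per condition) in R 4.3.3, and p-values were adjusted by Benjamini-Hochberg over 16582 genes, with 0.05 as the threshold and no limit on fold size. Normalised counts are counts divided by size factors of DESeq2 1.42.0, and levels compared between genes are TMM CPM per kilobase of exons in GENCODE. Standard errors are the log2 fold change over the square root of its F statistic, and 95% intervals follow from them, as approximations. The fit was tested on simulated data with known changes, set in wild-type day 6 libraries without cytokines and tested against wild-type EpiLCs. Of 100 genes changed by 1 on the log2 scale, 35% were called in the right direction, so such a change was often missed in the simulation. Of 100 genes changed by 2 it was 94%, and 7 unchanged genes were called. The common dispersion had a square root of 0.222.

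The 10 genes and all lists were chosen with earlier results of these data known. Of the other Polycomb and target genes, those named were among the 4 with the largest changes of their list in a comparison, past the threshold and with a mean raw count of 50 or more, and the genes of most similar profile were the top of 12200 by Pearson's r over 9 condition means. The other CBX levels, the paralog shares and the promoter windows are descriptions. The values of 1 gene of the lists are not reported here, and the CBX shares were computed without it. The alternatives were RLE factors, library size alone, no filter, DESeq2's Wald test, fits of only the libraries compared, a replicate block, limits on fold size and leaving out each library. Wild-type day 2 libraries with cytokines and stem cell libraries were not analysed here.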

Additional observations from a re-analysis of the deposited data

Results flagged for a closer look

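The results given here are those where the effect of a condition differed between genotypes by a test of the difference itself. From EpiLCs to day 6 without cytokines, the change in TKO cells less that in wild-type cells was 4.25 on the log2 scale for Cbx7, 1.85 for Mtf2, 1.45 for Ezh1, 1.44 for Eed, 1.30 for Pcgf6, 1.15 for Jarid2 and 1.14 for Suz12 (edgeR's quasi-likelihood test, adjusted p between 2.63e-06 and 0.0178). For the effect of cytokines at day 6, the difference was −4.85 for Cbx7, −2.56 for Ezh1, −1.95 for Jarid2, −1.80 for Suz12, −1.51 for Mtf2, −1.37 for Eed, −0.81 for Pcgf6 and 0.93 for Kdm2b (adjusted p between 5.19e-07 and 0.0186). Over all genes tested, 18.5% passed on each side in the first set, and 22% below and 21% above 0 in the second. In fits of only the libraries compared, the time interactions of Ezh1 (adjusted p = 0.0726) and Jarid2 (0.0813) and the cytokine interaction of Pcgf6 (0.0514) missed 0.05. These calls and that of Kdm2b were also lost without some single libraries. Wild-type cells with cytokines were sorted by the study's account and the others were not, so sorting and the genotype difference in the second set cannot be told apart. Groups of 2 libraries are too small to search for a library that stands apart from its group.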

How the results depend on the processing

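Of 69 calls on single genes, 69 kept their direction and their side of the threshold with RLE factors, 69 with DESeq2 and 69 with the replicate number as a block, which changed no count of calls either (with the block, 9 of the 10 genes were called in wild-type cells from EpiLCs to day 6 without cytokines, and 8 in TKO against wild-type cells at that stage). Libraries of the same number did not deviate together over all genes (r between −0.156 and 0.153 over 13 comparisons). That check gave no sign of pairing by number, but it could miss a pairing that affects few genes. Without the filter 67 calls held, with library size alone 58, and with a fit of only the libraries compared 59. Leaving out 1 library gave 336 repeats, of which 280 kept the call and 56 kept the direction only. With library size alone the log2 fold change of Eed from wild-type EpiLCs to day 2 became 0.10, and the genes called were 3 at day 2 and 5 at day 6 without cytokines in wild type, 8 in TKO cells from EpiLCs to day 6 without cytokines, 0 for TKO against wild-type EpiLCs and 3 for cytokines in day 6 TKO cells. Under that scaling the median log2 fold change of all genes lay between −0.49 and 0.73 over the comparisons. Without the filter 0 genes were called for TKO against wild type in EpiLCs and 2 at day 6 with cytokines. The fit of only the libraries compared gave 0 and 4 for those, and 3 for day 2 TKO against day 6 wild-type cells with cytokines. With a log2 fold change beyond 1 also asked for, the calls were 1, 4 and 3 for wild type against EpiLCs (day 2, day 6 without and day 6 with cytokines), 2 and 1 for TKO (day 6 without and with), and 0, 3 and 0 for TKO against wild type in EpiLCs, at day 2 and at day 6 with cytokines. Beyond 2 they were 0, 2 and 0, 0 and 0, and 0, 0 and 0 in the same order, 2 between the day 6 wild-type groups, 1 for TKO against wild type at day 6 without cytokines, and 1 and 2 for the time and cytokine interactions. Leaving out 1 library gave 1 to 2, 9 to 9 and 4 to 5 calls for wild type against EpiLCs, 8 to 9 between the day 6 wild-type groups, 2 to 4 and 2 to 3 for TKO against EpiLCs, 0 to 1, 5 to 6, 8 to 8 and 0 to 0 for TKO against wild type (EpiLC, day 2, day 6 without and with cytokines), 0 to 0 for the 3 comparisons without a call, 5 to 7 and 6 to 9 for the time and cytokine interactions, and 9 to 10 for any difference. Where a group is left with 1 library, that library is taken to vary like the others. Why calls were lost was not tested, beyond the smaller number of libraries in some fits. With 2 libraries per condition, the 95% intervals of the comparisons reached up to 0.655 to either side on the log2 scale, and those of the interactions up to 0.872, which limits what was detectable.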
